A study of Homo sapiens with 4 samples.

Results

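Human pluripotent stem cell cultures repeatedly acquire extra copies of the long arm of chromosome 1 (1q), the short arm of chromosome 12 (12p), and the long arms of chromosomes 17 (17q) and 20 (20q). ATAC-seq peaks on these 4 arms were chosen by position alone. On GRCh38 they start at or after base 143300000 of chromosome 1, 27000000 of chromosome 17 or 30400000 of chromosome 20, or end at or before base 34500000 of chromosome 12. The arms held 6474 of the 60875 peaks in the table, or 10.6%: 2706 on 1q, 788 on 12p, 1963 on 17q and 1017 on 20q. The stretch of 20q from its bound to 33 Mb, called the 20q11.21 segment here, held 106 peaks and is also described apart.

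ATAC-seq cuts accessible DNA with the Tn5 transposase, so that reads pile up where chromatin is open. It was carried out on WTC11 cells, a human induced pluripotent stem cell line, labelled wild type and harvested on day 6 of a differentiation to cardiac precursor cells, before beating cardiomyocytes form. The 4 libraries were 2 whose differentiation ended in a high share of cardiomyocytes and 2 whose differentiation ended in a low share, each from 50000 to 100000 cells and read in pairs of 42 bases. The labels call the replicates biological without saying whether they came from separate differentiations, and the p-values describe the scatter among these 4 libraries.

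Gained arms carry a growth or survival advantage in culture and are therefore screened for in stem cell lines. The gain at 20q11.21 is the best studied: its smallest common stretch contains BCL2L1, whose long product BCL-XL blocks apoptosis, ID1, an inhibitor of basic helix-loop-helix transcription factors, and HM13, a signal peptide peptidase. On 12p the pluripotency factor NANOG and the cyclin CCND2 have been named as candidate drivers, on 17q the apoptosis inhibitor BIRC5, and on 1q the p53 inhibitor MDM4. Extra copies give extra reads over all peaks of an arm, whether or not its chromatin differs, so a gain held by one group of libraries and not by the other would move whole arms in a comparison of the groups. A gain present in both groups would not show in that comparison.

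Each value of change is the log2 fold change in the authors' deposited table. Peaks with negative values are marked Up there and peaks with positive values Down. The purity group in the numerator being not given in the sources used here, negative values are called the Up side and positive values the Down side, and neither side is assigned to a purity group. The scale for copy number is arithmetic: 3 copies against 2 in every cell give a log2 difference of 0.585. Because values per library were not analysed here, depth is unknown and no arm median has a replicate error or a test.

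The promoters at which the results on named genes turn are shown first, from RefSeq (GRCh38.p14), as 300 bases from 250 before to 50 after a transcript start, 5′ to 3′ on the gene's strand. The first 3 belong to ID1 (chr20:31605039-31605338, plus strand) and to both annotated starts of BCL2L1 (chr20:31722819-31723118 and chr20:31723914-31724213, minus strand). They are shown because these genes define the 20q11.21 gain. The other 2 belong to SEPTIN9, one of its 10 promoters (chr17:77475385-77475684, plus strand), and to MIR365BHG (chr17:31570892-31571191, plus strand). They are shown because they are overlapped by the peaks with the largest Down side changes on 17q among called peaks of at least the median mean count. Capitals mark the TATA motif TATAAA, the box known as CCAAT, the GC box GGGCGG and the ETS-type motif CCGGAAG, each searched on both strands.
ID1: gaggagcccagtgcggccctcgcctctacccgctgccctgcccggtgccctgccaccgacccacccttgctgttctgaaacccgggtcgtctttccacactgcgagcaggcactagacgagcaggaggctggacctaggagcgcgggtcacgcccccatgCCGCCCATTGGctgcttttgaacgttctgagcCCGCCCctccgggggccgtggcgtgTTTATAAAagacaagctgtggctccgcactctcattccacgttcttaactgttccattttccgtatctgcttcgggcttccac
BCL2L1 first: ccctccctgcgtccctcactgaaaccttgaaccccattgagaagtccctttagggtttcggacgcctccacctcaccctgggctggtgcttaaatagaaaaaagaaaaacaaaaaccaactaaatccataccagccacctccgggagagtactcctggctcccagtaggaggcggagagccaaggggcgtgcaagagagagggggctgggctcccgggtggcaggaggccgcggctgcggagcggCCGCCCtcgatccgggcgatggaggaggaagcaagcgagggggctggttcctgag
BCL2L1 second: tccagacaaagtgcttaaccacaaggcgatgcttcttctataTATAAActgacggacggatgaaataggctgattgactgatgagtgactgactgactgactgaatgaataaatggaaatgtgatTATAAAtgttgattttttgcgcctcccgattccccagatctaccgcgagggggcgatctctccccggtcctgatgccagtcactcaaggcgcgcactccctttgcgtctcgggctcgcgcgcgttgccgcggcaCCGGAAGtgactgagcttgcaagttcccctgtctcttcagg
SEPTIN9: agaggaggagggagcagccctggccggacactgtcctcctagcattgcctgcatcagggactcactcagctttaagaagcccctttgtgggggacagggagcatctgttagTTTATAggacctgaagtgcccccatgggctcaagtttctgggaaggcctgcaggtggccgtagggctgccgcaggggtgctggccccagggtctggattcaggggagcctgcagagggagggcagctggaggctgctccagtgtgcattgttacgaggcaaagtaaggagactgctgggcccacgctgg
MIR365BHG: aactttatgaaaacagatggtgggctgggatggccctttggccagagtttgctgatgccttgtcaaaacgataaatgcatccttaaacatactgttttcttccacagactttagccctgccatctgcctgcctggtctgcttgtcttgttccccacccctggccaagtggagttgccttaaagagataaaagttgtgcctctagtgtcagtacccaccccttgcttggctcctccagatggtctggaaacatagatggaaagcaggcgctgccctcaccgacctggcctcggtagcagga
The ID1 promoter holds 2 overlapping matches to TATAAA, 1 to CCAAT and 2 to GGGCGG, one of them directly next to the match to CCAAT. The first BCL2L1 promoter holds 1 match to GGGCGG, and the second holds 2 to TATAAA and 1 to CCGGAAG. The SEPTIN9 promoter holds 1 match to TATAAA, and none of the 4 motifs is in the MIR365BHG window. Among 35116 RefSeq promoters of this length, TATAAA is in 11.5%, CCAAT in 34.6%, GGGCGG in 45.0% and CCGGAAG in 10.3%. These matches describe the letters of the windows and not bound sites.

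No arm moved as a whole by an amount near the copy number scale. The change of each peak was taken relative to the median of other autosomes in the same of 20 bins of the mean count, since low peaks lean to the Up side across the genome. The median of this matched change was 0.0088 on 1q, 0.0484 on 12p, -0.0096 on 17q and -0.0179 on 20q. The middle of the peaks on 12p spanned -0.24 to 0.37 (quartiles), many times the size of its median. The remaining autosomes, split at the widest stretch without a peak, gave 35 parts with at least 100 peaks. Their medians ran from -0.0854 on 19p to 0.04 on 4b, with an SD of 0.0334 between parts. The medians of 1q, 17q and 20q lay inside that range, and 12p lay just above it, higher than all 35 other parts. On chromosomes 3, 4 and 14 the widest stretch without a peak is not the centromere, so their pieces are labelled a and b: 4a and 4b divide inside the short arm, 14a and 14b inside the long arm, and 3b is nearly the whole chromosome. With these 3 chromosomes left unsplit, 33 parts remained, the highest median among them was 0.039, and again none was above 12p.

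**Figure D1:**
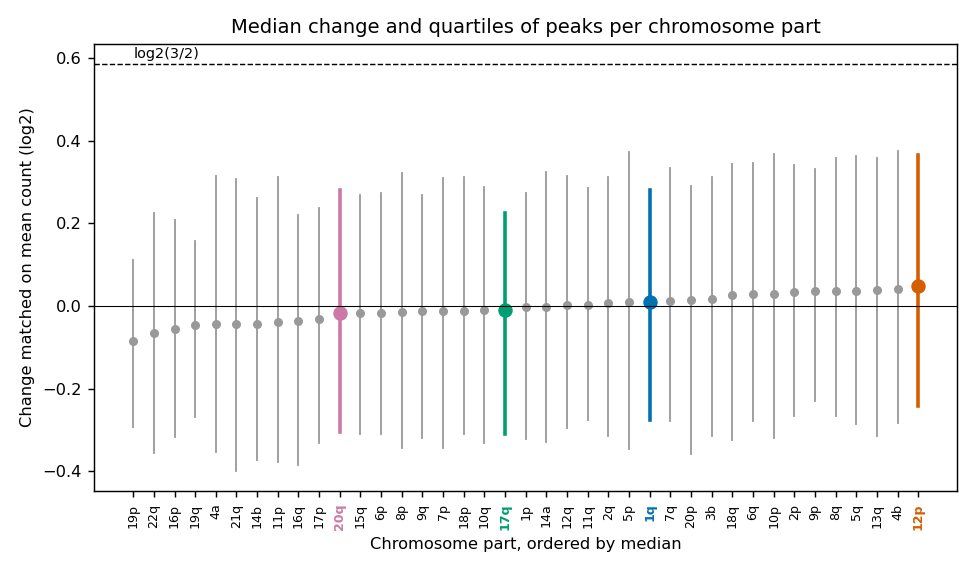
Median (point) and quartiles (bar) over peaks of the log2 change matched on mean count, for 39 chromosome parts ordered by median, with the 4 arms coloured and the dashed line at 0.585, the log2 ratio of 3 to 2 copies. The medians of 20q (-0.0179), 17q and 1q lie among those of the other parts, and 12p, at 0.0484, stands just above them all at the right end.

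The dependence on the mean count was large beside these medians. In the lowest of the 20 bins, the median deposited change of other autosomes in the authors' deposited table was -0.56, and all 4 arms were low in that bin too. The unmatched medians in the authors' deposited table were 0.0146 for 1q, 0.0507 for 12p, 0.0068 for 17q and -0.0052 for 20q. With and without matching, 12p was the highest of the arms and 20q the lowest.

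**Figure D2:**
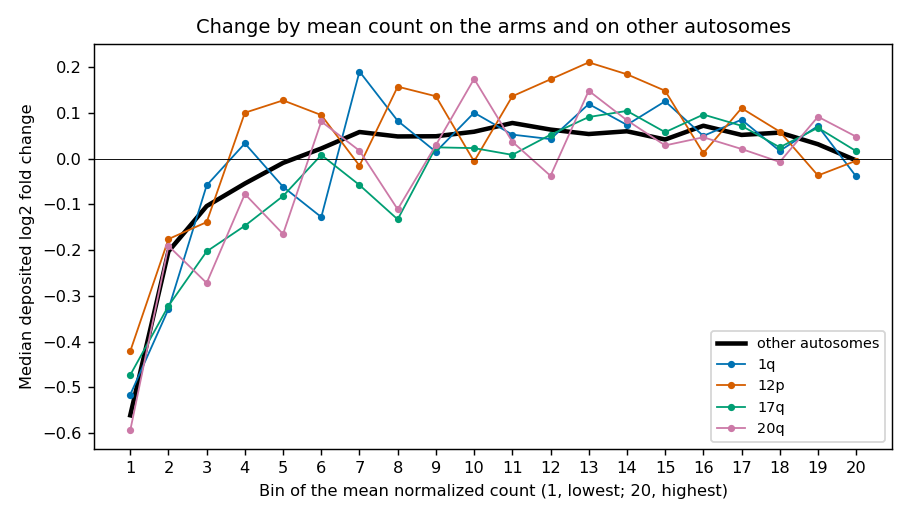
Median deposited log2 fold change in 20 bins of the mean normalized count, from lowest (1) to highest (20), for other autosomes (black) and the 4 arms (coloured). All lines start low, at -0.56 for other autosomes in bin 1, and level off near 0.

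Calls on the arms were as frequent as elsewhere. A peak is called here where its adjusted p from the authors' DESeq2 Wald test was under 0.05, the Benjamini-Hochberg adjustment running over all 60875 peaks. Of all peaks 3655, or 6%, were called (2.36% Up side, 3.64% Down side). Of the 6474 peaks on the arms 395 were, or 6.10%, as 154 Up side and 241 Down side peaks. Other autosomes gave 6.05%. The authors' own marking, a change of at least 1 in size with an unadjusted p under 0.05, took 9.84% of all peaks and 588 of those on the arms, and is not used below. The arms differed among themselves in the side. On 1q there were 56 Up side peaks (2.07%) against 90 Down side peaks (3.33%), and on 17q 58 (2.95%) against 51 (2.60%). On 12p the numbers were 18 (2.28%) against 49 (6.22%), and on 20q 22 (2.16%) against 51 (5.01%). Of these 51 peaks on 20q, 16 lay in 1 block of the 20q11.21 segment, described below. Beyond the segment the Down side share of 20q was 3.51%, under the 3.64% of all peaks. The Down side share of 12p lay above that of all 35 other parts, which ran from 0.615% to 5.57%, while 1 of them, 17p, lay above 20q. At an adjusted p under 0.01 the share was 2.54% on 12p and 3.64% on 20q, against 2.05% of all peaks. In equal classes of low, middle and high mean count, the 12p share at 0.05 was 6.44%, 8.66% and 3.70%. Other autosomes gave 2.48%, 5.12% and 3.45%, so 12p stood little above them among peaks of high mean count. Shares on the Up side ran from 1.56% to 3.68% in the other parts, and all 4 arms lay within that range. Peaks of an arm are neighbours in the same 4 libraries and not replicates, so these shares carry no test.

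**Figure D3:**
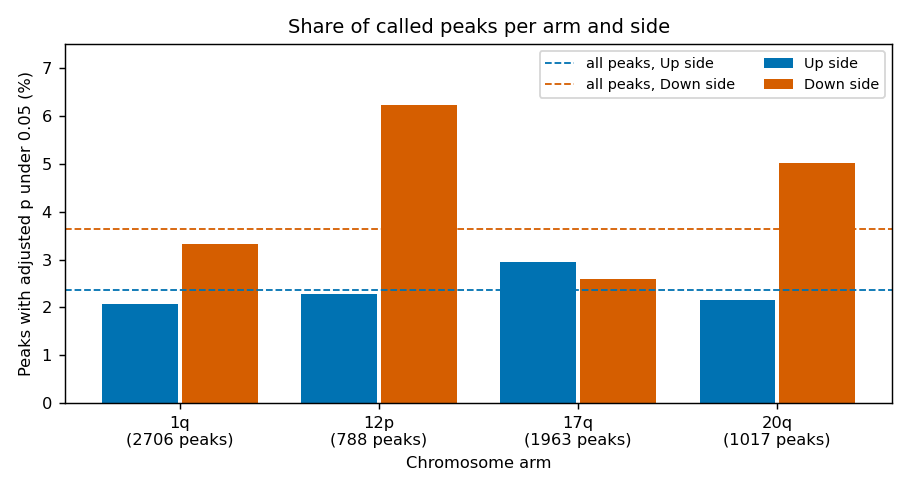
Share of peaks with an adjusted p under 0.05, in percent, for each side and arm, with dashed lines for all 60875 peaks. The Down side bars of 12p (6.22%) and 20q (5.01%) stand above the line at 3.64%, and those of 1q and 17q below it. The 20q bar includes 16 peaks of 1 block in the 20q11.21 segment.

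Called peaks on the arms were mostly away from promoters. A gene symbol in the table was carried by 16.2% of the 154 Up side peaks and by 5.81% of the 241 Down side peaks, against 25.2% of the 6079 arm peaks that did not pass. A RefSeq promoter window was overlapped by 5.19%, 3.73% and 20.5% of them, in that order. Other autosomes gave the same order, with 5.37%, 2.73% and 20.3%; chromosome 8, for which promoter windows were not used here, is left out of these shares and of all counts of promoter peaks. Promoter peaks, few of which were called, were also taken alone. Among them the matched median was 0.0137 on 1q (530 peaks), 0.0415 on 12p (134), 0.0299 on 17q (415) and -0.0089 on 20q (186), against 0.0044 on other autosomes.

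Windows of 5 Mb showed no stretch of several megabases at the copy number scale. In 47 windows with at least 20 peaks the matched median ran from -0.10 to 0.22, and 0 of them reached 0.585. The 500 windows of other autosomes had a median of 0.016, an SD of 0.0997 and a central range, from the 2.5 to the 97.5 percentile, of -0.15 to 0.19. Of the 47 windows, 46 lay within that range, and 2 of the 500 other windows lay past 0.585. The exception was 1q from 190 to 195 Mb, with 30 peaks, the fewest of any window on the arms, and a median of 0.22. Without matching on mean count its median was 0.0319.

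Along 1q 14 of 21 windows had a positive median, among them all 8 from 160 to 200 Mb. The lowest, -0.0639, was the window from 145 to 150 Mb, the nearest to the centromere with at least 20 peaks. In it 7 of 114 peaks were called towards the Up side and 1 towards the Down side. The few peaks still nearer the centromere are described below. Along 17q the medians stayed between -0.0572 and 0.0363 up to 75 Mb and were -0.0975 and -0.10 in the last windows before the telomere. The highest of them was the window from 45 to 50 Mb. On 20q the lowest window, -0.10, was also the last before the telomere, from 60 to 65 Mb, and the highest, 0.0828, was the first, from 30 to 35 Mb, which held 22 of the arm's peaks on the Down side. Across windows, the median fell with the number of genes within 1 Mb of the peaks. The Spearman correlation was -0.53 over the 47 arm windows (Pearson -0.43) and -0.41 over the 500 others (Pearson -0.35). This is a description over windows that share libraries and base composition.

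**Figure D4:**
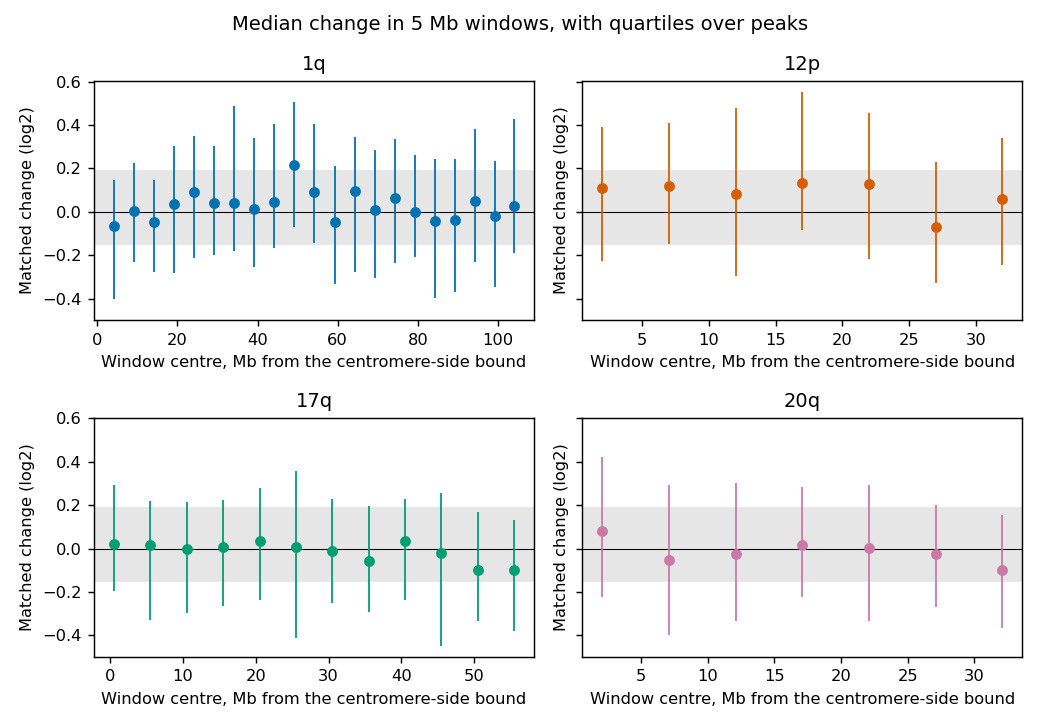
Matched log2 change in 5 Mb windows along each arm, as the median (point) and quartiles over peaks (bar), against the distance of the window centre from the bound on the centromere side; the grey band is the central range of 500 windows of other autosomes. Windows of 12p stand above 0 over most of the arm but inside the band, 1 window of 1q reaches 0.22, and the last windows of 17q and 20q lie near -0.10.

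On 12p the small positive median was spread over most of the arm. Of its 7 windows 6 were positive, and all 7 lay within the central range of other windows, whose median of 0.016 is also positive. The windows from 10 Mb had 6 to 18 genes within 1 Mb of their peaks, against 44.5 from 5 to 10 Mb. With matching on gene number as well, chosen after seeing the data, the arm had a median of 0.0405. From 10 Mb to the centromere the medians were 0.129, 0.132, 0.0831, 0.12 and 0.112, while the window from 5 to 10 Mb, which contains the NANOG cluster, was at -0.0693. Split at 10 Mb, a place chosen after these values were seen, the 439 peaks towards the centromere had a matched median of 0.11 with 6 Up side and 34 Down side calls (7.74%). The 349 peaks before 10 Mb had a median of -0.0224 with 12 and 15 (4.30%). The first group lies well under 0.585. The 49 peaks of 12p on the Down side were dispersed: 43 had a protein-coding gene within 100 kb, these were 34 different genes, and no gene had more than 3, the number near SOX5, a SOX family transcription factor. None of the 49 carried a symbol in the table and 2 overlapped a promoter window. On other autosomes 5.02% and 2.73% of Down side peaks did, so among 49 peaks few would. The 163 peaks of 12p that carried a symbol held 0 Down side and 4 Up side calls (2.45%), with a matched median of 0.0066. Of symbol-bearing peaks on other autosomes 0.882% were called on the Down side and 1.21% on the Up side. Counts this small say little of 12p. The 625 without a symbol had a median of 0.0696.

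The calls named on 12p lay at or near GALNT8, IRAG2 and PKP2 on the Down side, and SLC2A14 and SLC2A3 on the Up side. Peaks were named per arm and side by the 3 largest changes among called peaks whose mean count reached 47.8, the median of all peaks. On the Down side the authors' deposited table gave a change of 1.80 ± 0.27 (SE) inside GALNT8, of a glycosyltransferase family, with an adjusted p of 2.1e-08. The peak nearest IRAG2, at 21668 bp, had 1.74 ± 0.37 in the authors' deposited table (adjusted p 0.000208). A peak inside PKP2, a plakophilin of the desmosomes that join cardiomyocytes, had 1.61 ± 0.43 in the authors' deposited table (adjusted p 0.00601). On the Up side both named genes were glucose transporters near NANOG. In the authors' deposited table a peak inside SLC2A14 had -1.91 ± 0.43 (adjusted p 0.000714), and one 46157 bp from SLC2A3 had -1.63 ± 0.39 (adjusted p 0.00152). The third, at chr12:3999354-3999866, had no protein-coding gene within 100 kb and -1.74 ± 0.42 in the authors' deposited table.

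On 17q the strongest calls on the Down side lay at a SEPTIN9 promoter and at the host gene of a microRNA cluster. The peak at chr17:77475096-77475461 overlaps the SEPTIN9 promoter printed above by 77 bp; SEPTIN9 encodes a cytoskeletal GTPase. Its change was 3.05 ± 0.38 in the authors' deposited table, 8.27-fold, with an adjusted p of 8.54e-12. The peak at chr17:31571095-31571924 carries the symbol MIR4725 and overlaps the printed promoter of MIR365BHG by 97 bp. The authors' deposited table gave it 2.93 ± 0.33, 7.65-fold, with an adjusted p of 2.42e-14. The hairpins of MIR4725 and MIR365B lie 3345 and 3487 bp from this peak, both inside MIR365BHG. Their 3′ products are shown with bases 2 to 8, the seed, in capitals, because the peak lies at the start of the transcript that carries both.
hsa-miR-365b-3p: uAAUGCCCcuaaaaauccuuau
hsa-miR-4725-3p: uGGGGAAGgcgucagugucggg
The seeds differ. The next, inside SKAP1, an adaptor of T cell signalling, had 2.33 ± 0.35 in the authors' deposited table (adjusted p 3.84e-08). On the Up side the peaks lay inside PGS1, which makes a precursor of the mitochondrial lipid cardiolipin, LLGL2, an epithelial polarity protein, and YPEL2. Their changes in the authors' deposited table were -2.06 ± 0.28, -1.99 ± 0.36 and -1.69 ± 0.33.

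On 1q the largest change of all named peaks was on the Down side, inside INTS3, a subunit of the Integrator complex that processes small nuclear RNAs. It was 3.31 ± 0.39 in the authors' deposited table, 9.92-fold, with an adjusted p of 1.54e-13. A peak inside PLXNA2, a semaphorin receptor, and a peak at chr1:209291725-209292117 with no protein-coding gene within 100 kb both had 2.83 in the authors' deposited table (SE 0.41 and 0.45). On the Up side the authors' deposited table gave -2.06 ± 0.42 for a peak 17589 bp from CGN, which encodes cingulin of epithelial tight junctions. A peak inside OTUD7B, a deubiquitinase, had -1.90 ± 0.38 in the authors' deposited table, and one at chr1:157240562-157241164 had -1.81 ± 0.43.

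On 20q the calls named by this rule all lay outside the 20q11.21 segment. PIGU belongs to the complex that attaches GPI anchors, and the peak inside it had 2.11 ± 0.37 in the authors' deposited table (adjusted p 4.63e-06). A peak 85634 bp from SULF2, a heparan sulfate sulfatase, had 2.11 ± 0.35 in the authors' deposited table, and one inside ADNP, a chromatin regulator, 1.79 ± 0.38. On the Up side the authors' deposited table gave -1.85 ± 0.34 for a peak 5713 bp from EDN3, which encodes endothelin 3. A peak beside SPATA2 had -1.26 ± 0.32 and one inside LAMA5, a laminin chain, -1.25 ± 0.31 in the authors' deposited table.

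Calls were dense in the 20q11.21 segment (21.7% of its peaks), and most of its Down side calls lay in a block without genes. Its 106 peaks had a matched median of 0.14, with 4 Up side and 19 Down side calls (17.9%). Of the 19, 16 lay in one block of 17 peaks at chr20:31052011-31187418, a stretch of 135407 bp. All 17 peaks of the block were positive, with changes from 0.67 to 1.43 and a median of 1.22 in the authors' deposited table. The median SE was 0.197 there, and their mean normalized counts ran from 96.1 to 1081 with a median of 503, against 47.8 over all peaks. Each of its values lies above 0.585. No RefSeq gene of any kind overlaps it, none of its peaks carries a symbol or overlaps a promoter window, and the nearest protein-coding gene is the defensin DEFB115, 70246 bp away.

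The block did not extend over the genes of the gain. The 78 peaks of the segment beyond it, at chr20:31503158-32976599, had a matched median of 0.0221 and 4 Up side and 3 Down side calls. Without the block the 89 remaining peaks of the segment had a median of 0.0358. The 911 peaks of 20q beyond the segment had -0.034, with 18 Up side and 32 Down side calls. Neighbouring called peaks on the same side formed runs of at least 3 at 2 places on the 4 arms, both in this block, with 10 and 6 peaks. There were 34 such runs on the rest of the autosomes, while the arms hold 10.6% of all peaks. The longest had 17 peaks, on 17p, and another of 10 lay just before the bound of 17q. The sex chromosomes were not searched.

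**Figure D5:**
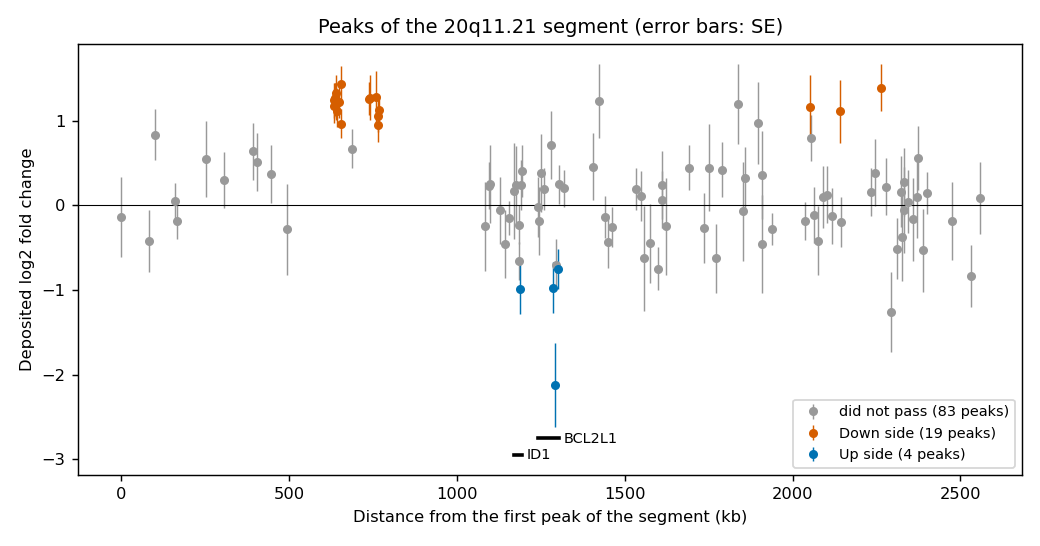
Deposited log2 fold change with its SE for the 106 peaks of the 20q11.21 segment, against distance from the first peak in kb, coloured by call; black bars mark the span of peaks nearest ID1 and BCL2L1. Of the 19 Down side peaks 16 cluster in 1 block before the genes, and the 4 Up side peaks lie at ID1 and BCL2L1.

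Peaks just outside the bounds of 1q and 17q were also positive, and those outside 20q mostly so. The 14 peaks of chromosome 1 before the bound of 1q, at chr1:143184601-143275957, were all positive, from 1.33 to 1.87 in the authors' deposited table, and 9 were on the Down side. The 3 peaks inside that bound within 1 Mb had a median of 0.36 in the authors' deposited table, with 0 called. The 16 peaks before the bound of 17q, at chr17:26494500-26885949, had a median of 1.44 in the authors' deposited table (0.23 to 2.12), and 11 were on the Down side. Inside that bound 28 peaks within 1 Mb had a median of 0.0376 in the authors' deposited table, with 1 Up side and 2 Down side calls. Before the bound of 20q 21 peaks had a median of 0.53 in the authors' deposited table (-0.0549 to 2.03), under that of the block, and 3 were on the Down side. Inside it, 28 peaks had a median of 1.01 in the authors' deposited table with 16 on the Down side, all of them in the block. On 12p the 6 peaks nearest the bound had a median of -0.0876 in the authors' deposited table. The treatment of reads that match several places, not given in the sources used here, was not tested for its part in these values.

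At BCL2L1 itself the promoter did not pass and 3 peaks inside the gene passed on the Up side, against the direction of the block. The promoter peak, chr20:31723344-31724006, overlaps the second printed promoter by 93 bp and had 0.25 ± 0.23 in the authors' deposited table (adjusted p 0.718). No peak overlaps the first printed promoter. The peak inside the gene at chr20:31709969-31710341 had -2.12 ± 0.49 in the authors' deposited table, 4.36-fold, with an adjusted p of 0.00109 and a mean count of 36.6. The peak at chr20:31704455-31704935 had -0.97 ± 0.30 in the authors' deposited table (adjusted p 0.0269). The peak labelled ABALON, a non-coding RNA that overlaps BCL2L1, at chr20:31719831-31720589, had -0.75 ± 0.23 in the authors' deposited table (adjusted p 0.0263). The other 6 peaks nearest BCL2L1 lay between -0.70 and 0.72 in the authors' deposited table and did not pass. Of the 10 peaks, 3 were thus called towards the Up side and 0 towards the Down side.

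At ID1 1 of 7 peaks passed, again towards the Up side. The peak at chr20:31608432-31608842, 1922 bp from the gene, had -0.99 ± 0.29 in the authors' deposited table (adjusted p 0.0175). The peak labelled ID1, at chr20:31604081-31604595, had -0.66 ± 0.23 in the authors' deposited table and did not pass (adjusted p 0.0589). It passed narrowly under both alternatives tried on the authors' DESeq2 values, with an adjusted p of 0.0498 among peaks at or above the median count and 0.0447 after recentring. The peak at chr20:31604979-31605640 covers the printed ID1 promoter whole, carries the symbol MIR3193, and had -0.23 ± 0.23 in the authors' deposited table (adjusted p 0.742). The other 4 peaks nearest ID1 lay between 0.17 and 0.41 in the authors' deposited table and did not pass. Both genes thus held peaks of either sign. Beyond the block, the 3 peaks of the segment on the Down side were 2 inside NOL4L, with 1.16 ± 0.38 and 1.11 ± 0.37 in the authors' deposited table, and 1 at 7008 bp from C20orf203, with 1.39 ± 0.28. Both NOL4L calls were lost when changes were recentred on the running median over mean count (adjusted p 0.0609 and 0.07, from the authors' DESeq2 values adjusted again).

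Genes of the segment did not pass at their highest peak, and most had positive values under 2 of their SE. Of 15 listed genes 13 had a peak within the gene or 2 kb of it, and the highest-count peak passed in 0, with a median of 0.20 and a range from -0.66 at ID1 to 0.44 at TM9SF4 in the authors' deposited table. The same table had a median of 0.0364 over the 11384 peaks that overlap a promoter window, of which 1.17% were called. TPX2, a spindle assembly factor, had 0.20 ± 0.21 in the authors' deposited table, and HM13 had 0.23 ± 0.28. ASXL1, a chromatin regulator often mutated in myeloid disease, had -0.28 ± 0.19 in the authors' deposited table, and the DNA methyltransferase DNMT3B 0.045 ± 0.37. The kinesin KIF3B had 0.32 ± 0.37 and the microtubule end binder MAPRE1 0.15 ± 0.24 in the authors' deposited table. PLAGL2 and POFUT1 share 1 peak, with 0.42 ± 0.32 in the authors' deposited table. PDRG1 had 0.19 ± 0.24 and COMMD7 -0.51 ± 0.36 in the authors' deposited table. Over all 38 peaks at these genes, 10.5% were called: 4 passed towards the Up side, those of BCL2L1 and ID1, and 0 towards the Down side.

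Of 16 candidate drivers on the other arms 14 had a peak and 0 of their 27 peaks was called. With 6% of all peaks and 1.17% of promoter peaks called, few or none would be called among so few, so the count says little of these genes, and the median over highest peaks was 0.0123 in the authors' deposited table. On 12p the authors' deposited table gave -0.22 ± 0.48 at NANOG, -0.0687 ± 0.42 at the germ cell factor DPPA3 and 0.11 ± 0.34 at SLC2A3. The cyclin CCND2 had 0.28 ± 0.27, the cell cycle factor FOXM1 0.0945 ± 0.38 and the tetraspanin CD9 -0.38 ± 0.45 in the authors' deposited table. On 17q BIRC5 had 0.0473 ± 0.35, STAT3, which relays cytokine signals, 0.0346 ± 0.18 and the adaptor GRB2 -0.23 ± 0.20 in the authors' deposited table. The ligand WNT3 had 0.32 ± 0.42 and SOX9 -0.0099 ± 0.28 in the authors' deposited table. On 1q MDM4 had -0.12 ± 0.27 and the NODAL inhibitor LEFTY1 0.73 ± 0.41 in the authors' deposited table. Each of these differences was under 2 of its SE.

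Of 16 listed cell division genes 15 had a peak on the arms. The other, PCNA, lies off the arms and could not count. Of the 27 peaks 0 was called, a count near the same background of 6% and 1.17%. The median over highest peaks was 0.16 in the authors' deposited table. The highest was TOP2A, the topoisomerase of dividing cells, at 0.48 ± 0.22 (adjusted p 0.217), and the lowest MYBL2, a transcription factor of the cell cycle, at -0.48 ± 0.35 (adjusted p 0.569), both in the authors' deposited table.

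Listed markers of cell types were counted in the same way, from peaks on the arms only. The lists also hold KRT8, KRT18, ERBB3, TIE1, NOS3, CLEC14A and POSTN, which lie off the arms and could not count. Their lack of a peak here says nothing of their chromatin. Of 14 cardiac muscle genes 13 had a peak and 0 passed at the highest peak; TNNT2, cardiac troponin T, had -0.11 ± 0.24 in the authors' deposited table and RYR2, the calcium release channel, 0.19 ± 0.30. Over the 72 peaks of these genes, 2 at MYL4, an atrial myosin light chain, passed on the Up side and 2 at CACNA1C, a calcium channel, on the Down side, together 5.56% against 6% of all peaks. Pluripotency genes had peaks at 5 of 7 and 0 calls among 10 peaks. Endoderm and epithelium genes had peaks at 7 of 10, with a median of -0.55 in the authors' deposited table. HNF4A, a transcription factor of liver and gut, passed on the Up side at -1.14 ± 0.28 in the authors' deposited table (adjusted p 0.00247). KRT19, an epithelial keratin, and ELF3, an epithelial transcription factor, each held 1 Up side call at another peak. Endothelium and blood genes had peaks at 6 of 10 and stroma and smooth muscle genes at 6 of 8, with 0 calls among 20 and 11 peaks; at 6% of all peaks called, these counts of 0 in short lists are near the background. Of 4 neural genes 3 had a peak, and NES, the intermediate filament nestin, passed on the Down side at 0.99 ± 0.26 in the authors' deposited table (adjusted p 0.0067). The part of cell makeup in the medians of the arms was not tested.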

How the data were processed

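Reads were aligned and peaks called and compared by the authors with BWA, MACS2 and DESeq2 on GRCh38 (hg38), per the submitters' processing notes; no version is named. Tn5 shifting, duplicate removal and whether peaks were called per library were not given in the sources used here. Per the file headers, the authors' table holds a mean normalized count (a signal over all libraries), a log2 fold change with its standard error, the Wald score, and a p-value with its adjusted value. The score equalled the log2 fold change over its standard error to within 1.72e-07 in the authors' table.

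A count test per library had been planned; since the table holds no value per library, the authors' test was used instead. Arms follow position bounds. Other autosomes were split at their widest stretch without a peak. The change was matched by subtracting the median of other autosomes in 20 equal-sized bins of mean count, checked on simulated data. That check drew each peak independently and allowed a miss larger than any of the main arm medians. It therefore says little about medians this small. Windows needed 20 peaks. Named peaks were the 3 largest called changes per arm and side among peaks with at least the median mean count, every called peak of the 20q11.21 segment, all peaks nearest BCL2L1 and ID1, and the highest-count peak of listed genes. The arms and lists were chosen with earlier results of these data known. Genes, promoters and microRNAs came from RefSeq GRCh38.p14; of 1410 symbols on the arms 1352 matched. A few listed genes are not reported here. Tools were Python 3.11.15, pandas 2.3.3 and numpy 2.4.6. Alternatives changed the matching, the peaks used, the windows and the threshold.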

Additional observations from a re-analysis of the deposited data

How the results depend on the processing

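Of 83 recomputed values for arms, windows and calls, 72 were labelled close to the reported value and 11 moved, and the cause was not tested. An arm median counted as close when it moved by less than the SD between that arm's windows, from 0.0473 on 17q to 0.0713 on 12p. For each arm this SD is larger than the median itself, so the label says little about the arms. For the segment the SD of other windows, 0.0997, was used. Counts were close within a set ratio, which took in 588 calls by the authors' marking. With the 10% of peaks highest in mean count, 12p turned to -0.0285 and 20q to 0.0452. Over its alternatives 12p ran from -0.0285 to 0.0654, 1q from -0.0086 to 0.0143, 17q from -0.0227 to 0.0307 and 20q from -0.034 to 0.0452. The 20q11.21 segment (0.14) was 0.372 as a mean weighted by the SE, 0.96 in those 10%, 0.0352 with symbol-bearing peaks, -0.0057 with promoter peaks and 0.0358 without the block. The number of windows outside the central range, 1, was 0 with symbol-bearing peaks, shifted windows or windows of 10 Mb. Calls numbered 216 at an adjusted p under 0.01 (75 on the Up side, 141 on the Down side), 548 under 0.1 and 395 at 0.05. Matching on gene number, peaks over promoters, the segment without its block and chromosomes 3, 4 and 14 unsplit were chosen after seeing the data. Tests on counts (edgeR, DESeq2 with other size factors) and leaving out a library were not run, since no value per library was at hand. No paired analysis was possible because the table carries 1 comparison and no value per library. Depth is unknown and no detection limit was worked out, so a gain in a small share of cells could have gone unseen here.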
